A study of Mus musculus with 12 samples.

Results

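The genes described here are 8 receptors that set where a T cell goes: Ccr7, S1pr1, Ccr4, Ccr6, Ccr8, Ccr9, Cxcr3 and Cxcr4. They were chosen by gene name, with earlier results of these data known, from a table of 36222 genes measured by RNA sequencing in regulatory T cells (Treg) of mice. Each name belonged to 1 gene identifier, so the set holds 8 of the 36222 genes. Loss of Ikaros and stimulation moved these genes in different ways. Ex vivo, Cxcr3 was the 1 receptor of the 7 tested that was called, higher in Treg lacking Ikaros, and Ccr6, also higher, just missed a call (limma adjusted p 0.0538). After stimulation, S1pr1 was lower and Ccr4 higher in Treg lacking Ikaros than in wild-type Treg. These genotype calls of Cxcr3, S1pr1 and Ccr4 were lost when genes of lower abundance entered the fit, and that of Ccr4 also without scaling between libraries. Stimulation lowered S1pr1 in both genotypes and Cxcr4 in both, in WT with a call lost in 9 of 20 alternative fits. In the cells lacking Ikaros, Ccr7 and Cxcr3 were also called lower and Ccr4 higher with stimulation. A difference between genotypes in the response to stimulation was called for Cxcr3, in 12 of 20 alternative fits, and not for Ccr7 or Ccr4.

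The study measured how loss of Ikaros, a zinc finger transcription factor encoded by Ikzf1, affects Treg before and after activation through the antigen receptor. The 12 libraries form 4 groups of 3: WT ex vivo, Ikzf1 cKO ex vivo, WT stimulated and Ikzf1 cKO stimulated. All mice carried Cre recombinase and yellow fluorescent protein (YFP) under control of the Foxp3 locus, so the WT controls carry this Cre as well, and the Ikzf1 cKO (conditional knockout) mice also carried floxed Ikzf1 alleles. Per the labels, the cells were Treg from spleen, sorted as CD4+ YFP+ cells of individual mice. Stimulated cells spent 4 h in wells carrying plate-bound anti-CD3 and anti-CD28, each used at 1 µg/ml, and ex vivo cells were not cultured, so an effect of culture and an effect of stimulation cannot be told apart. Ex vivo cells came from age-matched mice aged 6 to 8 weeks. Deletion is restricted to cells that express Foxp3, and the sort on YFP keeps cells that express the Cre.

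Chemokine receptors and the sphingosine 1-phosphate receptor S1pr1 are heptahelical receptors that signal through inhibitory G proteins and steer cells along gradients of ligand. CCR7 brings naive and central T cells into lymph nodes, S1PR1 lets them leave into lymph and blood, and CXCR4 holds cells near sources of CXCL12. Activated T cells lose surface S1PR1 through CD69 and lose its transcript when the transcription factor KLF2 falls, while effector Treg gain receptors for inflamed or barrier tissue such as CXCR3, CCR4, CCR6 and CCR8. CCR9 directs T cells to the small intestine, where its ligand CCL25 is made.

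All genes were placed on mouse assembly NCBIM37 (mm9). Ccr7 lies on chromosome 11 from 99005510 to 99016391, S1pr1 on chromosome 3 from 115413351 to 115417973 and Cxcr4 on chromosome 1 from 130484776 to 130488870, all on the minus strand. Cxcr3 lies on chromosome X from 98926874 to 98929608, minus strand, and Ccr6 on chromosome 17 from 8429077 to 8449992, plus strand. Chromosome 9 carries Ccr4 from 114399434 to 114405662 on the minus strand, Ccr8 from 120001251 to 120004024 on the plus strand and Ccr9 from 123587557 to 123691089 on the plus strand. Ccr9 shares 269 exonic bases with the same-strand gene model Gm17200 and is overlapped on the other strand by exons of Slc6a20a and Gm17021, so some of its reads may have been left uncounted or split. No exon of the other 7 genes overlapped another gene model.

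The promoters of Cxcr3 and Ccr4 are shown because these receptors were higher in Ikzf1 cKO Treg, and those of Ccr8 and Cxcr4, which genotype did not call, for comparison. RefSeq promoter windows (GRCm38.p6, matched base for base to NCBIM37) were given for 6 of the 8 genes, and the 250 bases before the start were searched on both strands for CACCC (KLF), TGGGAA (Ikaros), TGANTCA (AP-1) and GTAAACA (forkhead). Only bases outside the gene model are printed, 5′ to 3′ on the strand of the gene, with motif matches in capitals. The Cxcr3 sequence is chrX:98929609-98929736, the Ccr4 sequence chr9:114405663-114405912, the Ccr8 sequence chr9:120001001-120001250 and the Cxcr4 sequence chr1:130488877-130489126.
Cxcr3: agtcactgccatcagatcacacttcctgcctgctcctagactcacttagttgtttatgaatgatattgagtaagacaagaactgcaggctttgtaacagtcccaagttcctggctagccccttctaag
Ccr4: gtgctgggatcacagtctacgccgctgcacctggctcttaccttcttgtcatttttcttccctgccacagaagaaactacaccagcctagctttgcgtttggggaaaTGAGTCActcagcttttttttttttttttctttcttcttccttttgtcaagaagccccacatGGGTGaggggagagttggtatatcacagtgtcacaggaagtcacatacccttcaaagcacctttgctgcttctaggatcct
Ccr8: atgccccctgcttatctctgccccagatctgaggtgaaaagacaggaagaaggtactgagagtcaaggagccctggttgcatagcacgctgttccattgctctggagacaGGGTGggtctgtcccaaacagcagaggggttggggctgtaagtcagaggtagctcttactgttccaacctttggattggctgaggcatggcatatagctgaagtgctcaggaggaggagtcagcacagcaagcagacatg
Cxcr4: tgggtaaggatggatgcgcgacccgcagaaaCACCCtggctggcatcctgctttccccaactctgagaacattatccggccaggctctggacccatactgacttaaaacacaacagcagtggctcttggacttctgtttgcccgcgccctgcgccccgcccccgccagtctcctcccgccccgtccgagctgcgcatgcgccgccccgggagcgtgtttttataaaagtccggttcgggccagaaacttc
The Cxcr3 window of 250 bases held none of the 4 motifs, which says only that these letters are not in it. The Ccr4 window held TGAGTCA, which begins 143 bases before the start, and GGGTG, the reverse complement of CACCC, at 81 bases. The Ccr8 window held GGGTG at 140 bases and the Cxcr4 window CACCC at 219 bases, and no 2 matches overlapped. Across 32851 mouse promoters of the same length, CACCC was found in 52.01%, TGGGAA in 21.59%, TGANTCA in 6.749% and GTAAACA in 3.166%. The single TGGGAA match among the 7 windows of these genes lay 75 bases before the second start of Ccr6, and no window held GTAAACA. The shorter core GGGAA that the study gives for Ikaros was not counted. The printed Ccr4 and Cxcr4 sequences hold it or its reverse complement TTCCC. A match is a match of letters and is not evidence of binding.

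Libraries held 8208659 to 20247649 reads on genes, and their values are TPM, a transcript abundance that corrects for gene length and library size. Xist, a transcript of female cells, reached 179 TPM in WT ex vivo 3 and did not exceed 1.36 TPM elsewhere. Ikzf1, the deleted gene, was at 104.9 ± 20.6 TPM in WT and 41.9 ± 2.82 TPM in Ikzf1 cKO Treg ex vivo, and at 74.8 ± 8.48 and 25.2 ± 7.43 TPM after stimulation (SD, n = 3 in all groups here and below). The gene model Gm10800 took from 17.7% to 55.9% of the TPM of a library, which takes TPM from every other gene of that library. Its share was higher in stimulated libraries, going from a mean of 26.0% ex vivo to 38.1% stimulated in WT and from 22.9% to 48.8% in Ikzf1 cKO. Within Ikzf1 cKO the stimulated libraries (42.9% to 55.9%) did not overlap the ex vivo ones (20.4% to 24.4%), and within WT they overlapped through WT ex vivo 2 at 39.8%. Falls of TPM as deposited with stimulation thus go with a rise of this share, and its part in the results was not tested. Library values below are TPM as deposited, while changes are on the log2(scaled TPM + 1) scale after scaling between libraries, where the pseudocount of 1 understates changes of low genes. Changes were tested with limma over the 13318 genes that reached 5 TPM in the mean of a group, and a gene was called at an adjusted p under 0.05. Scaling on all genes down to 1 TPM instead moved the median of these genes to -0.31 for genotype after stimulation, -0.23 for stimulation in WT and -0.50 for stimulation in Ikzf1 cKO cells, and TPM as deposited moved it to 0.21 for genotype ex vivo, -0.30, 0.18 and -0.31, so changes are relative to the genes of at least 5 TPM. With 3 libraries against 3, an exact permutation test of 1 gene cannot go below 0.1, so it decides no comparison here.

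Ccr7 was the most abundant of the 8 genes in every group and Ccr9 the least abundant. Among WT ex vivo Treg the order by mean TPM was Ccr7, S1pr1, Cxcr4, Ccr8, Cxcr3, Ccr4, Ccr6 and Ccr9, in which S1pr1 overlapped Cxcr4 and Ccr4 overlapped Ccr6 while all other neighbours were apart. The mean of Ccr7 lay above that of 99.6% of the genes tested, that of Ccr8 above 94.3% and that of Ccr6 above 64.4%. In Ikzf1 cKO Treg ex vivo Cxcr4 stood second and S1pr1 came next, without overlap, and only Ccr6 and Ccr4 overlapped. WT stimulated cells had the same order as Ikzf1 cKO ex vivo cells, again with overlap of Ccr6 and Ccr4 alone. In Ikzf1 cKO stimulated cells the order was Ccr7, Cxcr4, Ccr8, S1pr1, Ccr4, Cxcr3, Ccr6 and Ccr9, and 3 pairs of neighbours overlapped, namely Cxcr4 with Ccr8, S1pr1 with Ccr4 and Ccr4 with Cxcr3. The 3 lymphoid receptors Ccr7, S1pr1 and Cxcr4 thus held the first 3 places in 3 of the 4 groups, and Ccr8 stood above S1pr1 in Ikzf1 cKO stimulated cells.

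**Figure D1:**
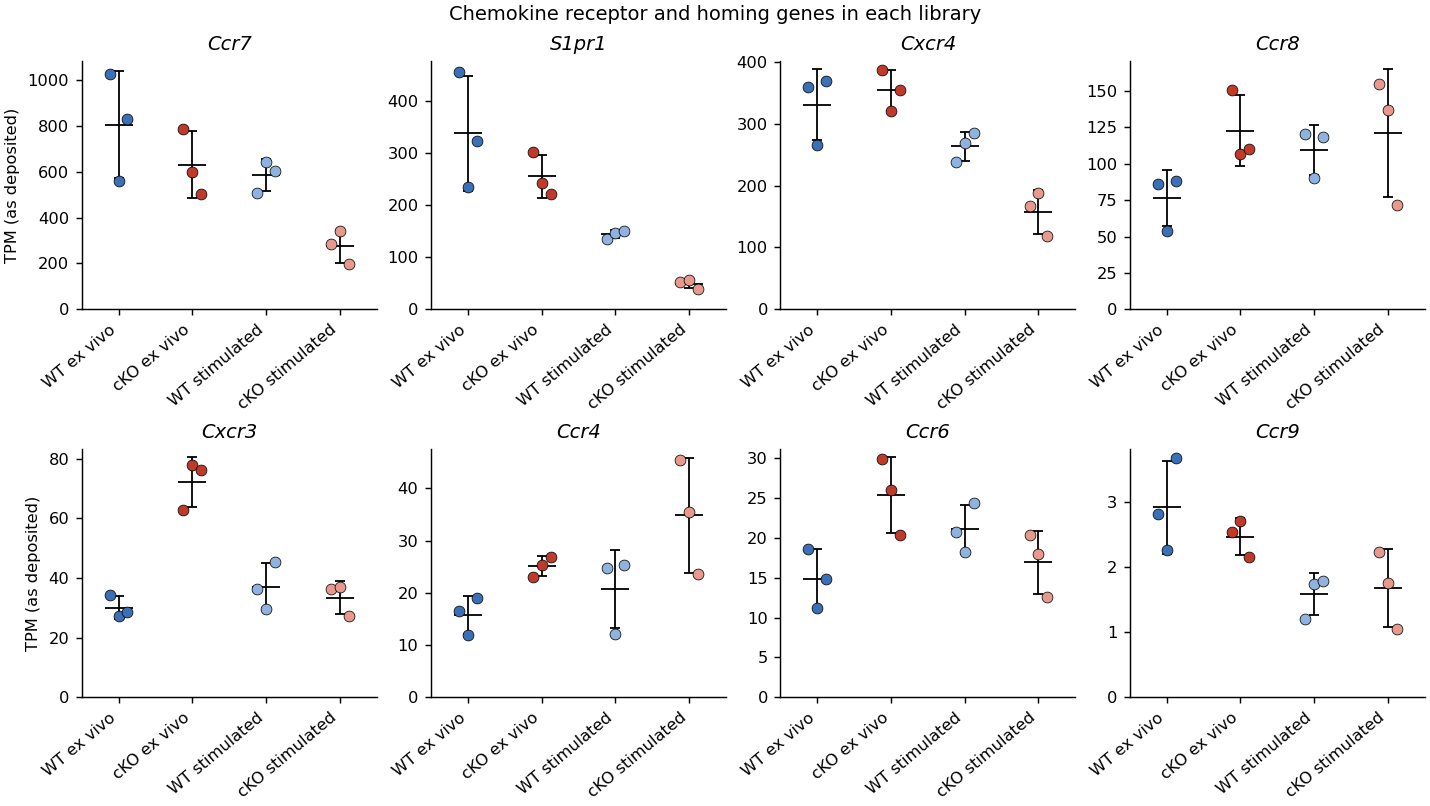
TPM as deposited of each of the 8 genes in each library (points, 3 per group) with the group mean and SD (bars); every vertical axis starts at 0 and has its own scale. S1pr1 lies between 235 and 456 TPM in WT ex vivo libraries and between 39.3 and 55.9 TPM in Ikzf1 cKO stimulated libraries, and Cxcr3 stands apart in Ikzf1 cKO ex vivo libraries at 62.7 to 77.9 TPM.

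The 3 receptors of lymphoid traffic, Ccr7, S1pr1 and Cxcr4, were at their lowest in stimulated Treg lacking Ikaros. S1pr1, the exit receptor, was at 456, 235 and 323 TPM in the WT ex vivo libraries 1 to 3 and at 302, 242 and 222 TPM in the Ikzf1 cKO ex vivo libraries. After stimulation it was at 135, 147 and 150.1 TPM for WT and at 52.2, 55.9 and 39.3 TPM in Ikzf1 cKO cells. All stimulated libraries lay below all ex vivo libraries of either genotype, and all Ikzf1 cKO stimulated libraries lay below all WT stimulated libraries. Stimulation lowered S1pr1 by 1.37 on the log2 scale in WT (SE 0.18, limma adjusted p 0.000192) and by 2.03 in Ikzf1 cKO Treg (SE 0.18, limma adjusted p 1.12e-05), and both calls held in each of the 20 alternative fits. In bulk RNA, fewer cells that carry a receptor and less of its RNA per cell cannot be told apart. In stimulated cells S1pr1 was lower in Ikzf1 cKO than in WT, with a change of -1.26 (SE 0.18, limma adjusted p 0.00202). That call held in all 12 fits that left out a library and was lost when genes down to 1 TPM entered (log2 change -1.56, limma adjusted p 0.0717). Ex vivo the genotype change was -0.60 (SE 0.18, limma adjusted p 0.0833), not called, although voom on recovered reads called it with all libraries (-0.60, limma-voom adjusted p 0.0169) and leaving out cKO ex vivo 1 gave -0.77 (limma adjusted p 0.0477). The interaction of genotype and stimulation was -0.66 (SE 0.25, limma adjusted p 0.252), so a steeper fall in Ikzf1 cKO cells was not shown.

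Ccr7, the lymph node entry receptor, was at 1027, 559 and 832 TPM in WT ex vivo libraries and at 789, 599.8 and 503 TPM in Ikzf1 cKO ex vivo libraries. Stimulated cells were at 509, 643 and 603 TPM for WT and at 284, 339.6 and 198 TPM in Ikzf1 cKO cells. The genotypes overlapped ex vivo and did not overlap after stimulation, where each Ikzf1 cKO library was below each WT library. Stimulation lowered Ccr7 in Ikzf1 cKO Treg by 0.88 on the log2 scale (SE 0.23, limma adjusted p 0.0108), a call that quantile normalization removed (log2 change -0.07, limma adjusted p 0.788). In WT Treg the change with stimulation was -0.62 (SE 0.23, limma adjusted p 0.0588) and was not called. It was called without WT ex vivo 2 (-0.75, limma adjusted p 0.0437), without cKO ex vivo 1 (-0.62, limma adjusted p 0.0397), without WT stimulated 2 (-0.82, limma adjusted p 0.0333) and without cKO stimulated 2 (-0.64, limma adjusted p 0.0495), and by voom with all libraries (-0.62, limma-voom adjusted p 0.0115), and it was +0.26 after quantile normalization. The genotype change was -0.57 ex vivo (SE 0.23, limma adjusted p 0.211) and -0.83 after stimulation (SE 0.23, limma adjusted p 0.0554), neither of them called. With all libraries the latter was called by voom (-0.83, limma-voom adjusted p 0.0025) and after quantile normalization (-0.67, limma adjusted p 0.0416). Leaving out cKO stimulated 2 made it -1.02 (limma adjusted p 0.0354), and leaving out cKO ex vivo 1 gave -0.83 (limma adjusted p 0.0403). Ccr7 therefore sat close to the threshold in stimulated cells. Its interaction of genotype and stimulation was -0.25 (SE 0.32, limma adjusted p 0.756), so a steeper fall in Ikzf1 cKO cells was not shown.

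Cxcr4, the CXCL12 receptor, was at 359.6, 266 and 369 TPM in WT ex vivo libraries and at 387, 321 and 356 TPM in Ikzf1 cKO ex vivo libraries. Stimulated libraries were at 238, 269 and 285 TPM for WT and at 167, 189 and 118 TPM in Ikzf1 cKO cells. Within Ikzf1 cKO cells stimulated and ex vivo libraries did not overlap, while in WT the library WT ex vivo 2 fell among the stimulated ones. Stimulation lowered Cxcr4 by 0.85 on the log2 scale in Ikzf1 cKO Treg (SE 0.16, limma adjusted p 0.00183), a call held in all but 1 of the 20 alternatives, quantile normalization being the exception at -0.16 (limma adjusted p 0.281). In WT Treg the change was -0.51 (SE 0.16, limma adjusted p 0.0316). The WT call held in 11 of the 20 alternatives. It was lost without WT ex vivo 1 (-0.56, limma adjusted p 0.0522), WT ex vivo 3 (-0.42, limma adjusted p 0.103), WT stimulated 1 (-0.42, limma adjusted p 0.117) or WT stimulated 3 (-0.49, limma adjusted p 0.0867), and the sign turned under quantile normalization (+0.25, limma adjusted p 0.128). It was also lost with a replicate block (limma adjusted p 0.0546), in TPM as deposited (-0.31, limma adjusted p 0.344) and when genes down to 1 TPM entered (-0.77, limma adjusted p 0.164). The genotype change of Cxcr4 was -0.13 ex vivo (SE 0.16, limma adjusted p 0.766), with a positive sign in TPM as deposited and after quantile normalization, and -0.47 after stimulation (SE 0.16, limma adjusted p 0.108), where voom called it (-0.47, limma-voom adjusted p 0.0278) and leaving out cKO stimulated 2 gave -0.63 (limma adjusted p 0.047).

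Among the receptors of effector Treg and inflamed tissue, the main fit called Cxcr3 between genotypes ex vivo and Ccr4 after stimulation. Cxcr3, the receptor of the interferon-induced chemokines CXCL9, CXCL10 and CXCL11, was at 34.5, 27.2 and 28.6 TPM in WT ex vivo libraries and at 62.7, 77.9 and 76.1 TPM in Ikzf1 cKO ex vivo libraries. Stimulated libraries stood at 36.4, 29.7 and 45.5 TPM for WT and at 36.2, 37.0 and 27.2 TPM in Ikzf1 cKO cells. The lowest Ikzf1 cKO ex vivo library was above every library of the other 3 groups, and those 3 groups overlapped one another. Cxcr3 rose 2.00-fold on the scale of scaled TPM + 1 in Ikzf1 cKO Treg ex vivo (log2 change 1.00, SE 0.10, limma adjusted p 0.000278), in all 12 fits without a library, and the call was lost when genes down to 1 TPM entered (0.99, limma adjusted p 0.092). Because Cxcr3 is X-linked and WT ex vivo 3 carried Xist, that library was also left out, which gave 0.97 (SE 0.11, limma adjusted p 0.00189). In stimulated cells the genotype change was 0.14 (SE 0.10, limma adjusted p 0.393), and it was -0.15 when genes down to 1 TPM entered and -0.14 in TPM as deposited. The change of Cxcr3 with stimulation was 0.09 in WT (SE 0.10, limma adjusted p 0.527), with a negative sign when genes down to 1 TPM or all genes entered, and Cxcr3 fell by 0.77 on the log2 scale in Ikzf1 cKO Treg (SE 0.10, limma adjusted p 0.000135), the latter in all 20 alternatives. The difference between the genotype effects was itself called, with an interaction of -0.86 (SE 0.14, limma adjusted p 0.0164). The interaction was lost without WT ex vivo 3 (-0.79, limma adjusted p 0.0564), without cKO ex vivo 3 (-0.81, limma adjusted p 0.0602) and without cKO stimulated 1 (-0.79, limma adjusted p 0.051), and its adjusted p ranged from 0.00146 to 0.448 over the 20 alternatives.

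Ccr4, a receptor for CCL17 and CCL22 that marks skin-homing and effector Treg, was at 16.5, 11.9 and 19.0 TPM in WT ex vivo libraries and at 23.0, 25.4 and 26.9 TPM in Ikzf1 cKO ex vivo libraries. Its stimulated values were 24.7, 12.03 and 25.3 TPM for WT and 45.5, 35.4 and 23.6 TPM in Ikzf1 cKO cells. In TPM as deposited the stimulated genotypes overlapped through cKO stimulated 3, the library with the largest Gm10800 share, and after scaling they did not. In stimulated Treg Ccr4 was higher in Ikzf1 cKO than in WT, with a change of 1.03 (SE 0.19, limma adjusted p 0.00971), in all 12 fits without a library, but not in TPM as deposited (0.75, limma adjusted p 0.14) nor when genes down to 1 TPM entered (0.73, limma adjusted p 0.324). Stimulation raised Ccr4 by 0.73 on the log2 scale in Ikzf1 cKO Treg (SE 0.19, limma adjusted p 0.0113), and the same settings ended this call at 0.41 (limma adjusted p 0.278) and 0.20 (limma adjusted p 0.684). In WT Treg the change with stimulation was 0.13 (SE 0.19, limma adjusted p 0.633), and ex vivo the genotype change was 0.43 (SE 0.19, limma adjusted p 0.269) although the ex vivo genotypes did not overlap. The interaction was 0.60 (SE 0.27, limma adjusted p 0.348) and was not called. The rise of Ccr4 was therefore a rise relative to the other genes of at least 5 TPM, whose median the scaling sets near 0.

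Ccr8, a receptor of CCL1 found on tissue effector Treg, was at 86.3, 54.1 and 88.4 TPM in WT ex vivo libraries and at 151, 107 and 111 TPM in Ikzf1 cKO ex vivo libraries. In stimulated libraries Ccr8 was at 120.5, 89.9 and 119 TPM for WT and at 155, 137 and 71.4 TPM in Ikzf1 cKO cells. Ex vivo the genotypes did not overlap in TPM as deposited and overlapped after scaling, and the stimulated genotypes overlapped on both scales. No comparison called Ccr8, with a genotype change of 0.46 ex vivo (SE 0.20, limma adjusted p 0.27) and 0.37 after stimulation (SE 0.20, limma adjusted p 0.301), the latter called after quantile normalization at 0.63 (limma adjusted p 0.0175). The change with stimulation was 0.34 in WT (SE 0.20, limma adjusted p 0.227) and 0.25 in Ikzf1 cKO cells (SE 0.20, limma adjusted p 0.335), both called only after quantile normalization, at 0.75 (limma adjusted p 0.00231) and 0.95 (limma adjusted p 0.000445). Each of its values rests on 574 to 2259 reads.

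Ccr6, the CCL20 receptor of mucosal and follicular cells, was at 18.6, 11.3 and 14.9 TPM in WT ex vivo libraries and at 29.9, 26.0 and 20.4 TPM in Ikzf1 cKO ex vivo libraries. After stimulation it was at 20.7, 18.2 and 24.3 TPM for WT and at 20.3, 17.9 and 12.6 TPM in Ikzf1 cKO cells. Each Ikzf1 cKO ex vivo library exceeded each WT ex vivo library, whereas the stimulated genotypes overlapped. The ex vivo genotype change of 0.52 missed the threshold (SE 0.14, limma adjusted p 0.0538) and passed it by voom (0.53, limma-voom adjusted p 0.0124), after quantile normalization (0.48, limma adjusted p 0.038) and without cKO ex vivo 3 (0.66, limma adjusted p 0.0266). Changes in the other comparisons were -0.04 for genotype after stimulation (SE 0.14, limma adjusted p 0.89), 0.30 for stimulation in WT (SE 0.14, limma adjusted p 0.113) and -0.25 for stimulation in Ikzf1 cKO cells (SE 0.14, limma adjusted p 0.151). The change in WT was called after quantile normalization at 0.43 (limma adjusted p 0.0157) and without cKO ex vivo 1 at 0.30 (limma adjusted p 0.0496). That in Ikzf1 cKO cells was called without cKO ex vivo 3 at -0.40 (limma adjusted p 0.0357) and when genes down to 1 TPM entered at -0.77 (limma adjusted p 0.0486). The interaction was -0.56 (SE 0.19, limma adjusted p 0.209).

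Ccr9, the gut-homing receptor, was near the background of the assay. It was at 2.82, 2.27 and 3.68 TPM in WT ex vivo libraries, at 2.54, 2.71 and 2.16 TPM in Ikzf1 cKO ex vivo libraries, at 1.21, 1.75 and 1.79 TPM in WT stimulated libraries and at 2.23, 1.76 and 1.04 TPM in Ikzf1 cKO stimulated libraries, from 24 to 158 reads each. As a measure of that background, the 90th percentile of 1555 olfactory and vomeronasal receptor genes was between 1.25 and 2.34 TPM across libraries. Ccr9 exceeded the percentile of its own library in 6 of 6 ex vivo libraries and in 1 of 6 stimulated libraries. It did not reach 5 TPM and was left out of the main fit. With genes down to 1 TPM included it was lower in WT stimulated than in WT ex vivo cells (log2 change -0.91, SE 0.22, limma adjusted p 0.0335), a call lost in 6 of the 12 fits lacking 1 library (limma adjusted p up to 0.142, without WT stimulated 1). In that fit the change was -0.53 for stimulation in Ikzf1 cKO cells (limma adjusted p 0.122), -0.36 for genotype ex vivo (limma adjusted p 0.874) and 0.02 for genotype after stimulation (limma adjusted p 0.979).

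**Figure D2:**
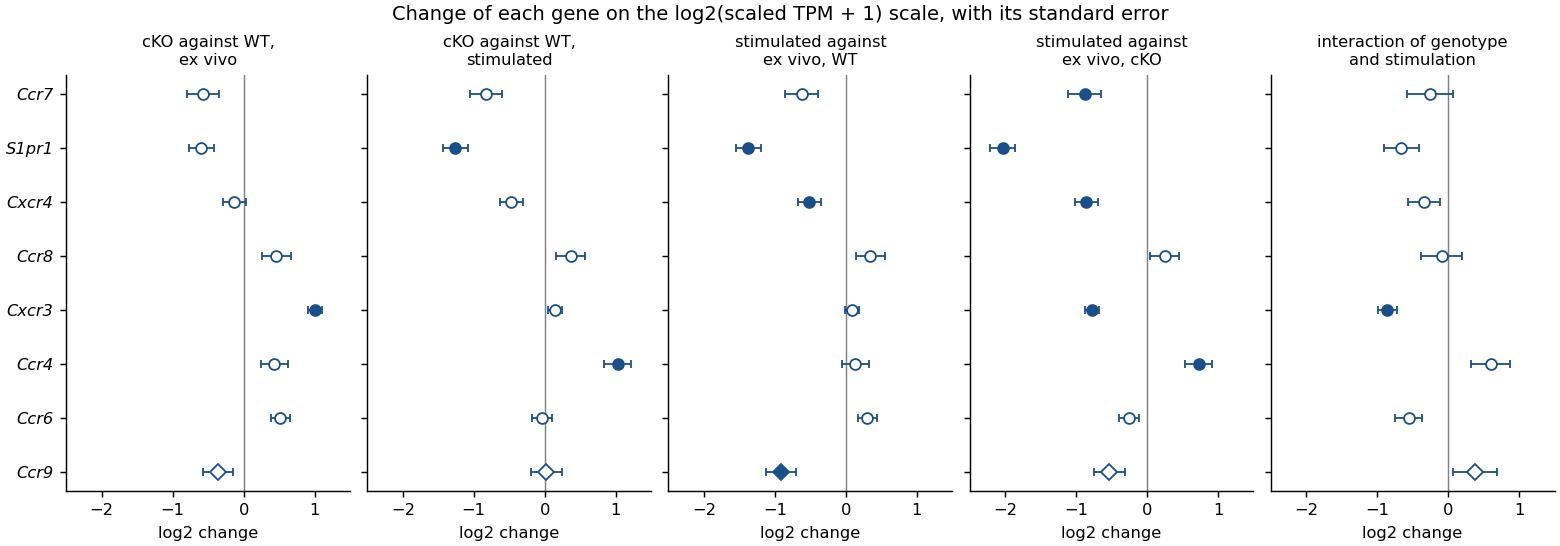
Log2 change (horizontal axis) of each gene in the 5 comparisons, on the log2(scaled TPM + 1) scale, with bars of 1 SE; filled symbols passed an adjusted p under 0.05 in limma, open symbols did not, and diamonds mark Ccr9, fitted with genes down to 1 TPM. S1pr1 shows the largest fall, 2.03 with stimulation in Ikzf1 cKO cells, and Cxcr3 is called in the interaction at -0.86.

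Counted over the 7 genes tested, the genotype effect ex vivo called 1 gene, Cxcr3, against 5.29% of all genes tested (3.62% higher and 1.67% lower). The unadjusted p was under 0.05 for 6 of the 7, and for 2384 of all 13318 genes. With genes down to 1 TPM limma called 0 of the 7 genes tested (1 at an unadjusted p under 0.05), against 0.168% of all genes. Voom called 3 of the 7, 2 higher and 1 lower, against 5.76% higher and 3.27% lower of all genes. The genotype effect after stimulation called 2 genes, S1pr1 lower and Ccr4 higher, against 6.93% of all genes (3.30% higher and 3.63% lower). With genes down to 1 TPM limma called 0 of the 7, against 0.201%. There 4 of the 7 had an unadjusted p under 0.05, beside 4664 of all 33873 genes. Voom called 4 of the 7, 1 higher and 3 lower, against 4.25% higher and 5.11% lower of all genes. The stimulation effect in WT called 2 genes, both lower, against 32.0% of all genes (12.7% higher and 19.3% lower), and Ccr9 was called in the fit of genes down to 1 TPM, which called 5.43%. In Ikzf1 cKO cells stimulation called 5 genes, 4 lower and 1 higher, against 43.8% of all genes (17.3% higher and 26.5% lower), and 17.4% of genes down to 1 TPM. Under other scalings the receptors called with stimulation of Ikzf1 cKO cells were 0 higher and 4 lower in TPM as deposited (4.19% higher and 30.9% lower of all genes), 0 higher and 5 lower with genes down to 1 TPM (2.23% and 15.2%), and 2 higher and 2 lower after quantile normalization (17.2% and 21.8%). In WT they were 0 higher and 1 lower in TPM as deposited (8.82% and 5.77%) and with genes down to 1 TPM (0.897% and 4.53%), and 2 higher and 1 lower after quantile normalization (15.5% and 14.4%). The interaction called 1 gene, lower, against 1.10% of all genes (0.451% higher and 0.653% lower), and 0.00% of genes down to 1 TPM.

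Groups that did not overlap in scaled TPM are given here as counts beside their share among all genes tested. Genotypes ex vivo were apart for 4 of the 7 genes, 3 higher and 1 lower in Ikzf1 cKO, against 21.5% of all genes (11.6% higher and 9.98% lower). Genotypes after stimulation were apart for 4, 1 higher and 3 lower, against 30.8% (12.8% higher and 18.0% lower). Stimulated and ex vivo cells were apart for 5 in WT, 2 higher and 3 lower, against 47.5% (21.1% higher and 26.3% lower), and for 5 in Ikzf1 cKO, 1 higher and 4 lower, against 53.6% (22.9% higher and 30.7% lower). The median change of the 7 genes was 0.43 for genotype ex vivo, -0.04 for genotype after stimulation, 0.09 for stimulation in WT and -0.77 for stimulation in Ikzf1 cKO cells, beside medians of all tested genes between -0.03 and 0.00. Across TPM as deposited, quantile normalization, voom and the lower filters the median of the 7 ran from 0.40 to 0.66 for genotype ex vivo, from -0.33 to 0.04 for genotype after stimulation, from -0.16 to 0.28 for stimulation in WT and from -1.31 to -0.07 for stimulation in Ikzf1 cKO cells. No test was made of these counts over 7 genes. Comparisons that share a group share its libraries, so their changes are not independent.

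A ratio of receptors taken within each library does not depend on the scaling between libraries. These ratios were chosen after the values were seen and are given with no test. The summed ratio below leaves out Cxcr4 and Ccr6, so it does not measure all lymphoid and tissue receptors. S1pr1 to Ccr8 was 4.43 ± 0.823 in WT and 2.09 ± 0.146 in Ikzf1 cKO libraries ex vivo, and 1.34 ± 0.265 and 0.432 ± 0.108 in those of stimulated cells. The 4 groups did not overlap in this ratio, and in Ikzf1 cKO stimulated cells S1pr1 was below Ccr8 in every library. The sum of Ccr7 and S1pr1 over the sum of Ccr4, Ccr8 and Cxcr3 was 9.27 ± 1.33 in WT ex vivo and 4.01 ± 0.61 in Ikzf1 cKO ex vivo libraries. After stimulation it was 4.51 ± 1.31 in WT and 1.75 ± 0.288 in Ikzf1 cKO libraries. On this measure Ikzf1 cKO ex vivo libraries, from 3.40 to 4.62, overlapped WT stimulated libraries, of which the lowest was at 3.55, and every other pair of groups was apart. S1pr1 to Ccr7 did not separate the genotypes ex vivo, at 0.417 ± 0.0284 in WT and 0.41 ± 0.0301 in Ikzf1 cKO, while after stimulation it was 0.248 ± 0.0184 and 0.182 ± 0.0167. The share of all 8 genes' TPM held by Cxcr4 was between 18.0% and 27.0% in every library, while S1pr1 went from 20.7 ± 1.85% in WT ex vivo to 7.23 ± 0.647% in Ikzf1 cKO stimulated libraries.

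**Figure D3:**
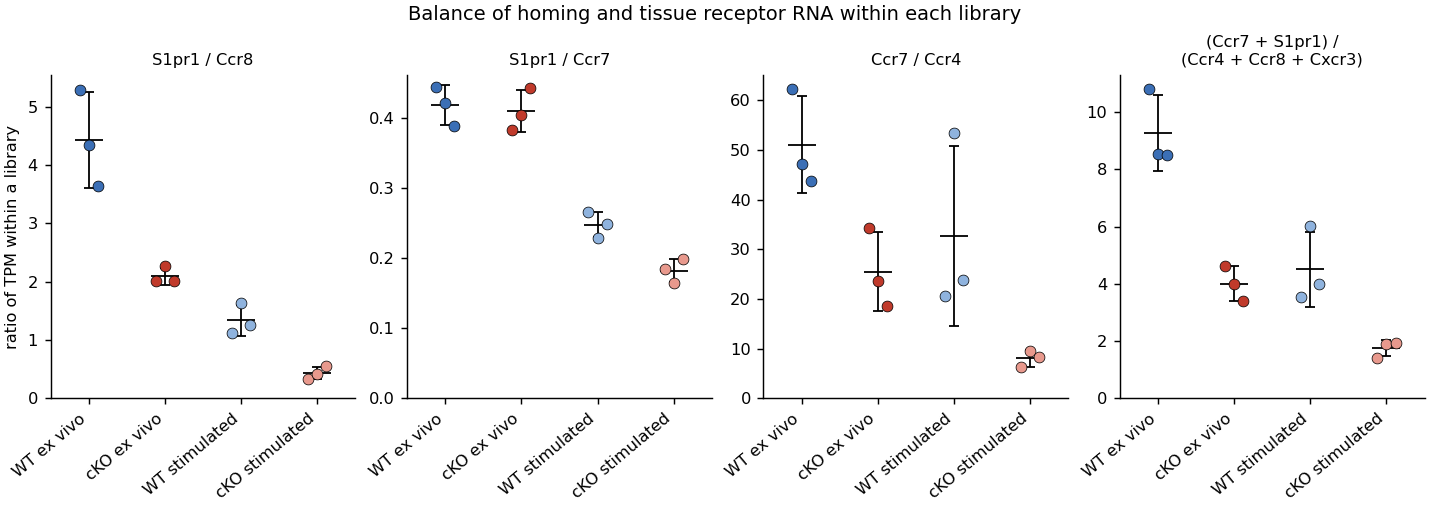
Ratios of TPM within each library (points, 3 per group, with the group mean and SD), which are free of the scaling between libraries. The ratio of S1pr1 to Ccr8 lies between 3.65 and 5.29 in WT ex vivo and between 0.337 and 0.55 in Ikzf1 cKO stimulated libraries, and these 2 groups do not overlap.

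The transcription factor KLF2 activates S1pr1 in resting T cells, and its own transcript fell in several of these comparisons. Klf2 stood at 1514, 1045 and 1704 TPM in WT ex vivo libraries and at 610.1, 564 and 644 TPM in Ikzf1 cKO ex vivo libraries, with no overlap. Klf2 was lower in Ikzf1 cKO Treg ex vivo, with a change of -1.44 (SE 0.15, limma adjusted p 0.000482), beside the S1pr1 change of -0.60 that was not called. With stimulation Klf2 changed by -3.60 on the log2 scale in WT Treg (SE 0.15, limma adjusted p 2.07e-07) and by -2.69 in Ikzf1 cKO Treg (SE 0.15, limma adjusted p 1.13e-06). After stimulation Klf2 was at 127 to 133 TPM in WT and 61.0 to 83.8 TPM in Ikzf1 cKO libraries, a change of -0.53 that missed the threshold (SE 0.15, limma adjusted p 0.0598). The interaction of genotype and stimulation was not called for Klf2 (0.91, SE 0.21, limma adjusted p 0.0689), as for S1pr1. Cd69, whose protein removes S1PR1 from the surface, was at 364 ± 112 TPM in WT and 368 ± 71.7 TPM in Ikzf1 cKO Treg ex vivo, and stimulation lowered it by 1.36 in WT (SE 0.20, limma adjusted p 0.000517) and by 1.71 in Ikzf1 cKO cells (SE 0.20, limma adjusted p 9.42e-05) on the log2 scale.

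Among 11 other genes of the sphingosine 1-phosphate axis, 7 were tested. Ex vivo Klf2 was lower and S1pr2, a receptor that inhibits migration, was higher in Ikzf1 cKO Treg (0.62, SE 0.09, limma adjusted p 0.00329). After stimulation S1pr4 was called between genotypes, lower in Ikzf1 cKO cells (-0.82, SE 0.11, limma adjusted p 0.00143), at 19.5 ± 3.80 TPM against 42.6 ± 3.13 TPM in WT. It was the 1 gene of the 7 called in the main fit there, where 6.93% of all genes were called (3.63% lower). Voom called 3 lower, against 5.11% of all genes, and quantile normalization 2 lower, against 6.78%. With genes down to 1 TPM limma called 0 of the 7 (5 at an unadjusted p under 0.05). Stimulation of WT Treg called 3 of the 7 higher and 3 lower, against 12.7% and 19.3% of all genes, and 0 higher and 2 lower with genes down to 1 TPM. Besides Klf2 and Cd69, the largest change among them was that of Sgpl1, the lyase that degrades sphingosine 1-phosphate, which rose by 0.71 (SE 0.11, limma adjusted p 0.000517), a call lost with genes down to 1 TPM (limma adjusted p 0.286).

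Of 16 chemokine receptors outside the 8, 4 reached 5 TPM, among them Cxcr5, Cxcr6 and Ccrl2. Genotype ex vivo raised Ccrl2, an atypical receptor that binds chemerin (0.86, SE 0.14, limma adjusted p 0.00537). After stimulation the main fit called none of the 4 between genotypes, with 2 at an unadjusted p under 0.05. Of the 4, 1 was called lower in TPM as deposited and after quantile normalization, against 1.78% and 6.78% of all genes. Voom on recovered reads called 1 higher and 1 lower, against 4.25% and 5.11%. Stimulation of WT Treg lowered Cxcr5, the receptor for the follicle chemokine CXCL13, by 1.42 on the log2 scale (SE 0.15, limma adjusted p 5.58e-05) and Ccrl2 by 1.25 (SE 0.14, limma adjusted p 6.84e-05). Cxcr6, the CXCL16 receptor, rose by 1.38 (SE 0.19, limma adjusted p 0.000271), from 3.03 ± 1.196 to 10.6 ± 2.00 TPM. In WT and in Ikzf1 cKO Treg stimulation called these 4 receptors, 2 in each direction, against 32.0% and 43.8% of all genes, and in WT 1 of the calls upward was lost with genes down to 1 TPM, with no filter and after quantile normalization. The other 12 stayed under 5 TPM in every group.

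Of 18 chemokine ligands in the table, 7 were tested. Cxcl10, a CXCR3 ligand, was higher in Ikzf1 cKO Treg ex vivo (0.98, SE 0.16, limma adjusted p 0.00559), at 47.7 ± 9.22 TPM against 20.03 ± 3.85 TPM, and after stimulation (1.07, SE 0.16, limma adjusted p 0.00272). Ex vivo it rose beside Cxcr3, whereas after stimulation Cxcr3 was not called between genotypes. Ccl1, the CCR8 ligand, was higher in Ikzf1 cKO cells after stimulation (1.81, SE 0.25, limma adjusted p 0.00179), at 9.04 ± 3.39 TPM against 2.24 ± 0.0101 TPM. Cx3cl1 was higher in Ikzf1 cKO Treg ex vivo (1.48, SE 0.33, limma adjusted p 0.0272), at 5.78 ± 0.518 TPM against 1.14 ± 0.111 TPM, a call held in 7 of the 12 fits without a library.

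Genes through which these receptors act fell with stimulation in larger shares than all genes did. Of 17 tested genes of receptor coupling and desensitisation and 16 of the migration machinery, the main fit called none between genotypes ex vivo, against 5.29% of all genes. The unadjusted p was under 0.05 for 5 and 2 of them, and for 2384 of all 13318 genes. Voom called 3 and 0 of them, against 5.76% higher and 3.27% lower of all genes. Quantile normalization called 1 coupling gene lower and 1 migration gene higher, against 1.66% lower and 3.39% higher of all genes. After stimulation Rgs1, which shortens G protein signals, was higher in Ikzf1 cKO cells (1.03, SE 0.18, limma adjusted p 0.00633), and Rgs10 (-0.46, limma adjusted p 0.0413) and Arrb2 (-0.35, limma adjusted p 0.0497) were lower, and the call held in 5 of the 12 fits without 1 library for Rgs10 and in 1 of the 12 for Arrb2. Of the 16 migration genes, 4 were lower in Ikzf1 cKO stimulated cells, against 3.63% of all genes, the largest changes being those of Stk4 (-0.62, limma adjusted p 0.0231), Dock2 (-0.48, limma adjusted p 0.0413) and Rapgef1 (-0.48, limma adjusted p 0.0238), each of them lost in at least 5 of the 12 fits without a library. In TPM as deposited and with genes down to 1 TPM limma called 0 of the 16, with 10 and 8 at an unadjusted p under 0.05. Among all genes that p was under 0.05 for 3644 of 13318 and 4664 of 33873. Voom called 6 of the 16 lower, against 5.11% of all genes. In WT Treg stimulation called 10 coupling genes lower and 1 higher, and 12 migration genes lower and 1 higher, against 19.3% lower and 12.7% higher of all genes. TPM as deposited called 5 and 3 lower and 0 higher, against 5.77% lower and 8.82% higher of all genes, and quantile normalization 9 lower and 4 higher of the coupling genes and 7 lower and 2 higher of the migration genes, against 14.4% and 15.5%. The lists had medians of -0.51 and -0.69 beside 0.00 for all genes, and these stayed negative under every scaling tried, at -0.21 and -0.21 after quantile normalization. Rac2, a GTPase of actin remodelling, fell by 1.42 (SE 0.13, limma adjusted p 2.39e-05), and Rgs1 by 1.93 (SE 0.18, limma adjusted p 2.39e-05), on the log2 scale. Rgs1 was not called with stimulation in Ikzf1 cKO cells, and its interaction of genotype and stimulation was called (1.69, SE 0.25, limma adjusted p 0.0132), in all 12 fits without a library. The interaction call was lost with genes down to 1 TPM (limma adjusted p 0.543). All 9 tested adhesion genes of lymph node entry fell in WT with stimulation, with a median of -0.69, although 4 of the 9 were called in TPM as deposited and Itgb1 turned positive after quantile normalization. The fall was led by Itgb7 (-1.36, limma adjusted p 4.16e-06), Cd44 (-1.11, limma adjusted p 0.000139) and Itgal (-1.05, limma adjusted p 3.72e-05). Between genotypes ex vivo Itgb1 (0.70, limma adjusted p 0.00173) and Cd44 (0.62, limma adjusted p 0.0251) were higher in Ikzf1 cKO Treg, and after stimulation Itga4 (-0.77, limma adjusted p 0.00189) and Itgb7 (-0.41, limma adjusted p 0.0271) were lower. The call held in 8 of the 12 fits without 1 library for Cd44 and in 7 of the 12 for Itgb7.

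Of 9 tested regulators of homing receptor genes, 3 were higher and 2 lower in Ikzf1 cKO Treg ex vivo, and 4 higher and 2 lower after stimulation, against 3.62% higher and 1.67% lower of all genes ex vivo and 3.30% and 3.63% after stimulation. With genes down to 1 TPM limma called 0 of the 9 ex vivo (5 at an unadjusted p under 0.05), and 1 higher and 2 lower after stimulation. Tbx21, which encodes T-bet, an activator of Cxcr3, was higher in Ikzf1 cKO Treg ex vivo (1.04, SE 0.12, limma adjusted p 0.000931) and after stimulation (1.73, SE 0.12, limma adjusted p 5.51e-05). It stood at 12.1 ± 0.479 TPM against 4.51 ± 0.58 TPM ex vivo and at 21.8 ± 7.21 TPM against 7.11 ± 1.5 TPM after stimulation. Stimulation of Ikzf1 cKO cells raised Tbx21 by 1.07 (SE 0.12, limma adjusted p 6.81e-05), a call lost with genes down to 1 TPM (limma adjusted p 0.0843). Irf4, a factor of effector Treg, was higher ex vivo (1.12, SE 0.13, limma adjusted p 0.00123). Tcf7 (-1.30, SE 0.13, limma adjusted p 0.000255) and Lef1 (-1.12, SE 0.09, limma adjusted p 8.5e-05), factors of naive and central T cells, were lower in Ikzf1 cKO stimulated cells. With genes down to 1 TPM the ex vivo calls of Tbx21 (limma adjusted p 0.0893) and Irf4 (limma adjusted p 0.19) were lost. Of the genotype calls named for the genes of these lists, that fit kept Cx3cl1 ex vivo and Ccl1, Tbx21, Tcf7 and Lef1 after stimulation, and lost the others.

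**Figure D4:**
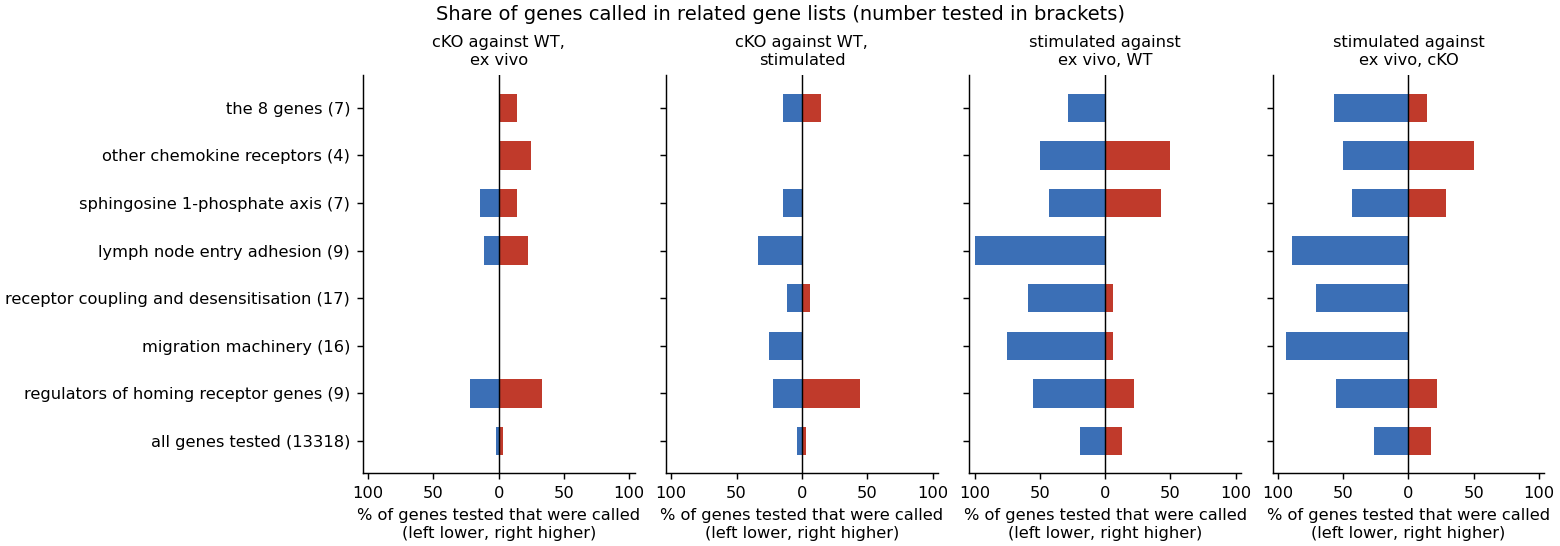
Share of the tested genes of each list called lower (left, blue) or higher (right, red) at an adjusted p under 0.05 in limma, by comparison, with all 13318 genes as the last row. With stimulation 9 of 9 adhesion genes of lymph node entry were called lower in WT, against 19.3% of all genes, and 2 of the 7 receptors tested.

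Markers of other cells and of Treg subsets moved with some of these results. All 8 Treg markers were tested, and Foxp3 was at 82.7 TPM or more in every library. Foxp3 was higher in Ikzf1 cKO than in WT stimulated cells (0.96, SE 0.18, limma adjusted p 0.00847), a call lost with genes down to 1 TPM (limma adjusted p 0.366). The 8 effector Treg markers summed to 296 to 379 TPM in WT ex vivo and 567 to 578 TPM in Ikzf1 cKO ex vivo libraries (320.9 to 365.9 and 481.9 to 542.1 in scaled TPM). Of the 8, 5 were called higher in Ikzf1 cKO Treg beside Cxcr3, against 3.62% of all genes. In TPM as deposited 3 of 8 were called, and 0 of 8 with genes down to 1 TPM (5 at an unadjusted p under 0.05). Voom called 7 of 8, against 5.76% higher and 3.27% lower of all genes. After stimulation they summed to 386 to 585 TPM in WT and 365 to 630.3 TPM in Ikzf1 cKO libraries, with 3 of 8 (Prdm1, Icos and Ebi3) called higher in Ikzf1 cKO cells beside Ccr4, against 3.30% of all genes, and 0 of 8 in TPM as deposited and with genes down to 1 TPM (2 at an unadjusted p under 0.05 in each). The 6 central Treg markers summed to 617 to 973 TPM in WT ex vivo, 749 to 796 TPM in Ikzf1 cKO ex vivo, 689 to 841 TPM in WT stimulated and 239 to 327 TPM in Ikzf1 cKO stimulated libraries, and 4 of 6 were called lower in Ikzf1 cKO stimulated cells beside S1pr1, against 3.63% of all genes, and 3 of 6 with genes down to 1 TPM. The 6 B cell markers, which matter because B cells carry Ccr7, Cxcr4 and S1pr1, summed to 253 to 327 TPM in WT ex vivo, 399.6 to 472 TPM in Ikzf1 cKO ex vivo, 101 to 144 TPM in WT stimulated and 83.1 to 117 TPM in Ikzf1 cKO stimulated libraries. Nearly all of this was Ighm, Ms4a1 and Cd79a were at group means from 1.07 to 2.58 TPM, and Cd79b was at group means from 4.08 to 11.9 TPM. Cd79b was higher in Ikzf1 cKO than in WT stimulated cells (0.96, SE 0.23, limma adjusted p 0.0283) and fell with stimulation in WT (-0.68, SE 0.23, limma adjusted p 0.0406), in 8 and 3 of the 12 fits without a library. Ighm fell with stimulation in WT (-1.63, limma adjusted p 3.99e-06) and in Ikzf1 cKO cells (-1.98, limma adjusted p 1.13e-06). This was the direction of S1pr1 and Cxcr4 in both genotypes and of the Ccr7 call in Ikzf1 cKO cells. The 2 CD8 T cell markers summed to at most 16.3 TPM, the 6 myeloid markers to at most 17.1 TPM, the 3 NK cell markers to at most 8.03 TPM and the 3 erythroid markers to at most 5.58 TPM in any library. The part of these cells and subsets in the receptor changes was not tested.

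Across the 12 libraries, the genes most like each receptor in log2(scaled TPM + 1) were taken among the 13318 genes by Pearson's r, as a description, since the libraries form 4 groups and share their scaling. S1pr1 was closest to Sesn1 (r = 0.99), Galnt6 (0.99) and Stk10 (0.99), and Ccr7 to Trbv13-3 (0.97), with Dgkd (0.96) also among its closest 3. Cxcr4 was closest to Trbc1 (0.98), Ctcf (0.97) and Pnrc2 (0.97). These values were above those of the genes closest to the other receptors. Ccr4 was closest to Tap1 (0.95), Ly6a (0.95) and Gm5970 (0.95), and Cxcr3 to Tcirg1 (0.93), Klrg1 (0.92) and Plxnd1 (0.92). Ccr8 was closest to Tnfrsf4 (0.90), Efhd2 (0.90) and Golga7 (0.90), and Ccr6 to Arhgef7 (0.95), Tpm1 (0.92) and Vgll4 (0.90). Among the receptors themselves, Ccr7, S1pr1 and Cxcr4 had r between 0.91 and 0.94, and Ccr4 had r of -0.83 with Ccr7.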

How the data were processed

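Per the labels and the study's methods, the authors sequenced strand-specific libraries of RNA depleted of ribosomal RNA as 51 bp paired-end reads, and used STAR 2.6.0c on mm9 and HTSeq 0.6.1. The deposited expression signal is in TPM over 36222 genes. Whole reads were recovered from it for 99.9977% of values (tolerance 0.01) and served 1 alternative. The authors' table of log2 fold changes and p-values was not used.

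Libraries were scaled by trimmed mean of M-values (30% of M and 5% of A trimmed), and log2(scaled TPM + 1) of the 13318 genes with a group mean of at least 5 TPM was fitted with limma 3.58.1 in R 4.3.3 over all 4 groups, two-sided, with a trended prior and Benjamini-Hochberg adjustment over all genes tested. The script was tested on simulated data. Each library is 1 mouse per the study's methods.

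The members and gene lists were chosen with earlier results of these data known. Named genes are the 8 receptors, Ikzf1, Klf2, Cd69 and Foxp3, up to 3 called genes of largest change per list and comparison, and the 3 genes most like each receptor, some of which are not reported here. Any further gene named was chosen after its values were seen. Alternatives were a filter at 1 TPM or none, a pseudocount of 0.5, TPM as deposited, quantile normalization, a replicate block, voom on recovered reads and leaving out each library. Leaving out WT ex vivo 2 and cKO stimulated 3 together was added after seeing the data.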

Additional observations from a re-analysis of the deposited data

Results flagged for a closer look

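The genotype effect on Cxcr3 differed between ex vivo and stimulated Treg by a test of the difference itself, with an interaction of -0.858 on the log2 scale (SE 0.14, limma adjusted p 0.0164). All 3 Ikzf1 cKO ex vivo libraries were above all 3 WT ex vivo libraries, and the genotypes overlapped after stimulation. The interaction was called in 9 of the 12 fits lacking 1 library, and not when genes down to 1 TPM entered (-1.14, limma adjusted p 0.448).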

How the results depend on the processing

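Of the changes of the 8 receptors under the alternatives, 707 kept their direction and their side of the threshold, 36 lost a call, 24 gained one and 28 turned sign. A turned sign also ended the Cxcr4 call for stimulation in WT after quantile normalization. Most of the 707 were not called in the main fit and stayed uncalled, so this total does not measure how stable the calls are. With genes down to 1 TPM, which also changed the scaling and moved the median change of genes of at least 5 TPM to -0.02, -0.31, -0.23 and -0.50 in the genotype comparisons ex vivo and after stimulation and the stimulation effects in WT and Ikzf1 cKO, limma called 57 genes for genotype ex vivo, 68 for genotype after stimulation, 1838 for stimulation in WT and 0 for the interaction (2405 at an unadjusted p under 0.05, and 395 adjusted by voom), and it called 0, 0, 1 and 0 of the 7 receptors of at least 5 TPM. Ccr9 was called besides for stimulation in WT, there and with no filter. With no filter the genes were 56, 68, 1694 and 0 (2686 unadjusted), and of the 7 receptors 0, 0, 1 and 0. TPM as deposited called 273, 306, 1943 and 67 genes, 1 receptor for genotype after stimulation, 1 for stimulation in WT and 0 for the interaction. Quantile normalization called 1579 genes for genotype after stimulation and 392 for the interaction, with 2 receptors for genotype ex vivo, 4 after stimulation and 0 for the interaction. Voom on recovered reads called 1203 genes for genotype ex vivo, 1247 for genotype after stimulation and 395 for the interaction, with 3 receptors for genotype ex vivo and 4 after stimulation. Without WT ex vivo 2 and cKO stimulated 3, an alternative chosen after seeing the data, the interaction called 72 genes and 0 receptors. Same-numbered replicates had correlations of deviations from -0.21 to 0.26, with 2 of 18 over 0.1, and 6 of 18 checks matched a sample best with its own number, so the numbers were not taken to pair samples. With a replicate block the interaction called 65 genes and stimulation in WT 1 receptor.

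Fits lacking 1 library called from 324 genes (without cKO ex vivo 3) to 740 genes for genotype ex vivo, from 398 (without WT stimulated 2) to 1054 after stimulation, from 3256 to 4387 for stimulation in WT, from 4098 (without cKO ex vivo 1) to 5992 in Ikzf1 cKO and from 50 (without cKO ex vivo 3) to 203 for the interaction. They called 1 to 2, 2 to 4, 1 to 4, 5 to 6 and 0 to 1 receptors. Signs turned for Cxcr4 ex vivo between genotypes in TPM as deposited (0.11) and after quantile normalization (0.10). Between genotypes after stimulation they turned for Ccr6 after quantile normalization (0.035) and in the added alternative (0.052, and -0.11 to 0.052 without 1 library), for Ccr9 after quantile normalization (-0.058, and -0.11 to 0.20 without 1 library) and for Cxcr3 at 1 TPM (-0.15), with no filter (-0.15) and as deposited (-0.14). For stimulation in WT they turned after quantile normalization for Ccr7 (0.26) and Cxcr4 (0.25), at 1 TPM and with no filter for Ccr4 (-0.11 and -0.086, and -0.0015 to 0.35 without 1 library) and for Cxcr3 (-0.16 and -0.14). For stimulation in Ikzf1 cKO Ccr8 turned at 1 TPM (-0.29), with no filter (-0.28) and as deposited (-0.077). For the interaction they turned in the added alternative for Ccr7 (0.015) and Ccr8 (0.29), for Ccr8 after quantile normalization (0.20, and -0.24 to 0.16 without 1 library), and for Ikzf1 at 1 TPM (-0.043), with no filter (-0.0601) and as deposited (-0.29). The causes were not tested. Ccr9 had the fewest reads of the 8, with 24 to 158 in a library.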
